A study of Mus musculus with 7 samples.

Results

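Cultured mouse fibroblasts that carried a stable short hairpin RNA against tenascin-C were compared with wild-type fibroblasts. The comparison rests on 5 of the series' 7 expression arrays, chosen by their titles: 2 arrays labelled shRNA TNC and 3 labelled wild-type. Each array measured 1 clone of spontaneously immortalised mouse embryonic fibroblasts. The wild-type clones were grown out from wild-type mice, and the knockdown clones were wild-type fibroblasts transfected with the hairpin. All were kept untreated for 2 days in DMEM with 10% fetal calf serum before RNA was taken. The other 2 arrays, of clones from tenascin-C knockout mice, entered the estimate of the spread and the side-by-side values given below. They also entered the choice of probe set, the filter on low signal and the mean that defines well-expressed genes. A group with a control hairpin was not analysed here, and the hairpin's sequence was not used. No label says which wild-type clone the knockdown clones came from, or whether each clone stems from its own animal, and the p-values therefore cover only how far these clones varied. Every gene named by a single-symbol probe set was included, with 1 probe set per gene, which gave 19937 genes. Of these, 16801 passed a filter on low signal and were tested, and 7233 were well expressed, with a mean log2 signal above 7 over the 7 arrays.

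Tenascin-C is a large glycoprotein of the extracellular matrix that is made in embryos, in healing wounds and around tumours. It binds fibronectin and integrins and weakens the attachment of cells to fibronectin, and growth factors, stretch and TGF-beta switch its gene on in fibroblasts. A short hairpin RNA is cut by the cell's small RNA machinery into a guide strand that brings the messenger RNA of its target to degradation.

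Array pairs had correlations of 0.979 to 0.990 across probe sets. Between any pair of wild-type clones, 85 to 133 well-expressed genes differed by more than 1 on the log2 scale, against 125 between the knockdown clones and 111 to 334 between a wild-type and a knockdown clone. Of 16 tested fibroblast markers 14 were well expressed, and none of 11 endothelial or 10 macrophage and blood markers was. Within a clone, fewer cells with a transcript and less of it per cell cannot be told apart on these arrays. The Y-linked gene Eif2s3y stood at 8.78 on knockdown array 1 and 5.46 on knockdown array 2, against 7.51 to 8.57 in wild type, while Xist lay between 3.51 and 3.74 on these 5 arrays. On knockout array 2 Xist stood at 8.80 and Eif2s3y at 3.77, against 3.77 and 7.87 on knockout array 1. Values without knockdown array 2 are given below for several genes whose difference rests on it, and the contrasts with knockout are also given without the arrays numbered 2.

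Only 3 genes of 16801 (0.0179%) passed an adjusted p under 0.05, and all 3 fell in knockdown: Tnc, Fhl1 and Prkar2a. The number that rose was 0. At an unadjusted p under 0.05, 1174 genes (6.99%) lay lower and 1197 (7.12%) lay higher. Among the well-expressed genes the corresponding counts were 935 lower (12.9%) and 603 higher (8.34%). Regardless of p, the knockdown arrays lay below all wild-type arrays in 1618 well-expressed genes (22.4%) and above them in 1230 (17%).

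The target itself, Tnc (chromosome 4), had log2 signals of 10.88, 11.42 and 11.38 in wild type and of 7.34 and 6.52 in knockdown. Both knockdown arrays lay far below every wild-type array. The signal fell 19.6-fold, with a log2 change of -4.30 ± 0.295 (SE) and an adjusted p of 0.0339. In the knockout arrays Tnc stood at 8.05 and 8.51, and the difference between knockdown and knockout did not pass (-1.35 ± 0.323, adjusted p = 0.139).

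Fhl1 (X chromosome) encodes a small protein built of LIM domains that binds the actin cytoskeleton and signalling proteins in muscle and fibroblasts. Its log2 signal was 10.43, 10.44 and 10.40 in wild type and 7.66 and 7.27 in knockdown. The wild-type arrays were nearly equal and the groups did not overlap. The signal fell 7.77-fold (-2.96 ± 0.181, adjusted p = 0.0337).

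Prkar2a (chromosome 9) encodes a regulatory subunit that holds protein kinase A inactive until cyclic AMP binds. It stood at 8.45, 8.44 and 8.41 in wild type and at 7.23 and 7.13 in knockdown. Again the groups were far apart relative to their own spread. The signal fell 2.38-fold (-1.25 ± 0.08, adjusted p = 0.0337).

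In the knockout arrays Fhl1 and Prkar2a lay on the other side of wild type. Fhl1 stood at 11.06 and 10.54, and its difference between knockdown and knockout passed the test (-3.34 ± 0.199, adjusted p = 0.0062). Prkar2a stood at 9.12 and 8.96, and its difference passed as well (-1.86 ± 0.0877, adjusted p = 0.00361). Both contrasts with knockout still passed without knockout array 2 (adjusted p = 0.0191 and 0.0136), but not without knockdown array 2 (0.119 each), where limma called 0 genes between knockdown and knockout and 2572 were at an unadjusted p under 0.05. All 3 calls ended when any 1 of the 7 arrays was left out, at adjusted p-values of 0.0923 to 0.297, while the changes kept their direction: -4.70 to -3.89 for Tnc, -3.15 to -2.76 for Fhl1 and -1.30 to -1.20 for Prkar2a.

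Signals on whole chromosomes were displaced in knockdown, which bears on every gene named below. Of the 435 well-expressed genes of chromosome 4, which carries Tnc, 387 (89%) lay lower in knockdown and 234 (53.8%) did so at an unadjusted p under 0.05, against 12.9% of all well-expressed genes. The median change on chromosome 4 was -0.39. On single arrays the chromosome 4 median, relative to the wild-type mean, was 0.09, 0.04 and -0.13 in wild type, -0.44 and -0.32 in knockdown and -0.04 and -0.14 in knockout. The knockdown arrays thus lay below all 5 others. With the chromosome divided into 10 segments in gene order, every segment had a median between -0.45 and -0.30, so the displacement was not limited to the neighbourhood of Tnc.

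Chromosome 2 was displaced the other way. Of its 586 well-expressed genes 526 (89.8%) lay higher and 218 (37.2%) at an unadjusted p under 0.05, against 8.34% of all well-expressed genes, with a median of 0.27. Its 10 segments had medians of 0.18 to 0.33. Both knockdown arrays (0.20 and 0.33) lay above the wild-type arrays (-0.09, 0.05 and 0.04). Genes at an unadjusted p under 0.05 also made up 25.9% higher on chromosome 18 (median 0.20) and 22.8% higher on chromosome 15 (median 0.20), and 24.3% lower on the X chromosome (median -0.22). The X chromosome medians were -0.06 on knockdown array 1 and -0.37 on knockdown array 2, so most of that shift lay on 1 array. DNA copy number was not measured, and its part in these displacements was not tested.

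**Figure D1:**
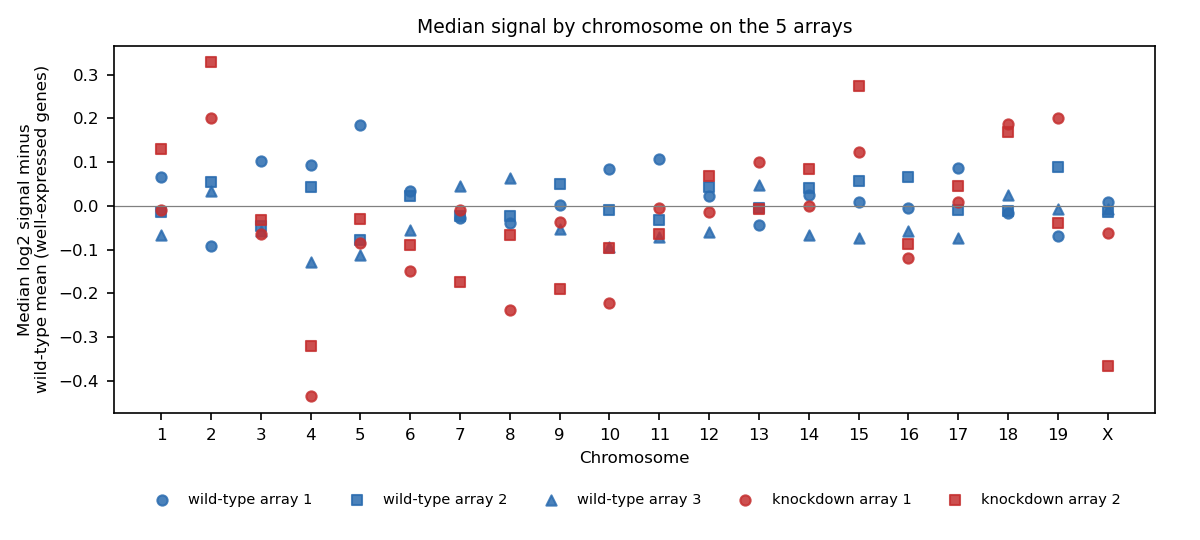
Median log2 signal of the well-expressed genes of each chromosome, relative to the wild-type mean of each gene, on the 3 wild-type arrays (blue) and the 2 knockdown arrays (red). Chromosome 4 lies at -0.44 and -0.32 and chromosome 2 at 0.20 and 0.33 on the knockdown arrays.

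When each chromosome's median was removed from every array, a setting added after seeing the data, Tnc (-3.91, adjusted p = 0.0199), Fhl1 (-2.74, adjusted p = 0.00701) and Prkar2a (-1.11, adjusted p = 0.0311) still passed. Genes of chromosome 4 that are named for small p-values moved closer to wild type, with Haus6 going from -1.13 to -0.74, Usp1 from -0.92 to -0.54 and Fhl3 from -0.73 to -0.35. So did Jun (-0.72 to -0.34), Id3 (-0.80 to -0.42), Prdx1 (-0.53 to -0.145) and, on chromosome 2, Srxn1 (0.53 to 0.25). Named genes of other chromosomes that moved by over 1.5 times included Lima1 (0.33 to 0.18), Srebf2 (0.38 to 0.23), Tubgcp3 (-0.40 to -0.26), Fancb (-0.59 to -0.37), Rad18 (-0.33 to -0.18), Blm (-0.25 to -0.13) and Txnrd1 (-0.44 to -0.27). Beside each further gene of chromosomes 2 and 4 the chromosome is given.

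Below the called genes, 929 well-expressed genes (12.8%) lay lower and 596 (8.24%) higher at an unadjusted p under 0.05 with groups that did not overlap. None of the genes described from here on passed the adjusted threshold over all genes, except where Fhl1 and Prkar2a are counted again in their lists.

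Among the largest differences downward was that of Ankrd1, a nuclear ankyrin-repeat protein induced by stretch and by the YAP and MRTF coactivators. It stood at 9.48, 9.73 and 10.12 in wild type and at 7.51 and 7.40 in knockdown. Both knockdown arrays were about equally low. The log2 difference was -2.32 ± 0.283 (adjusted p = 0.100).

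Ereg encodes epiregulin, a ligand of the EGF receptor. It stood at 8.71, 8.55 and 8.91 in wild type and at 7.10 and 4.87 in knockdown (-2.74 ± 0.625, adjusted p = 0.183). Gap43, a growth-associated membrane protein known from growing axons, stood at 10.90, 9.90 and 10.15 in wild type and at 9.47 and 5.73 in knockdown. In the knockout arrays Gap43 stood at 5.82 and 6.21, also below wild type. Both genes were below wild type on each knockdown array, but by much more on the second.

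Without knockdown array 2 the Gap43 difference shrank from -2.72 to -0.85, that of the amino acid transporter Slc38a1 from -2.03 to -0.69, that of the linker histone H1f1 from -1.91 to -0.86, and that of Ereg to -1.63. Without that array Cap2 went from -1.55 to -0.99, Lgals9 from 1.19 to 0.77, Gsta4 from 1.11 to 0.62 and Acvr2a from 0.98 to 0.59. Among smaller differences, Psme1 went from 0.50 to 0.28, Egln1 from -0.56 to -0.30, Lpp from -0.46 to -0.235, Ero1a from -0.41 to -0.27, Adcy3 from -0.35 to -0.22 and Col1a1 from 0.52 to 0.34. Krt19 rested on both arrays. This keratin of simple epithelia stood at 8.22, 8.25 and 8.51 in wild type and at 6.06 and 5.67 in knockdown (-2.46 ± 0.949, adjusted p = 0.332). The other 11 tested epithelial markers, Cdh1 and Epcam among them, were not well expressed and differed by -0.04 to 0.22.

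Gja1 encodes connexin 43, the main gap junction protein of fibroblasts. It stood at 9.32, 9.01 and 9.12 in wild type, at 7.41 and 7.97 in knockdown and at 9.35 and 9.80 in knockout. The knockdown arrays lay below all 5 others. The difference from wild type was -1.46 ± 0.213 (adjusted p = 0.117), and that from knockout passed the test (-1.88 ± 0.234, adjusted p = 0.0495), but not without knockout array 2 (-1.66, adjusted p = 0.0914) or knockdown array 2 (-2.16, adjusted p = 0.160).

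Hmgn5, a nucleosome-binding protein gene on the X chromosome, stood at 8.40, 7.79 and 8.05 in wild type and at 6.42 and 6.19 in knockdown (-1.77 ± 0.191, adjusted p = 0.0928). Epha2, an ephrin receptor gene on chromosome 4, stood at 9.21, 8.50 and 8.45 against 7.16 and 7.42 (-1.43 ± 0.249, adjusted p = 0.134). Groups did not overlap for either gene. The remaining genes among the 14 largest differences downward were Tll1 (-1.93), a tolloid-like matrix protease that can process procollagen, Cap2 (-1.55), a cyclase-associated protein that turns over actin filaments, and Atpaf1 (2.84-fold lower, chromosome 4), an assembly factor of ATP synthase.

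The smallest p-values downward, after the called genes, belonged to Haus6, Usp1 and Pik3cb, all at an adjusted p of 0.0928. Pik3cb, a catalytic subunit of phosphoinositide 3-kinase on chromosome 9, stood at 9.10, 8.87 and 8.83 in wild type and at 7.80 and 7.60 in knockdown. This is a 2.35-fold difference (-1.23 ± 0.122). Haus6, an augmin subunit needed for microtubule branching in the spindle, stood at 8.76, 8.63 and 8.52 against 7.59 and 7.42. Usp1, the enzyme that removes ubiquitin from FANCD2 and PCNA, stood at 8.28, 8.10 and 8.05 against 7.22 and 7.21. When the 7233 well-expressed genes alone were tested, these 3 genes, Ankrd1 and Hmgn5 passed, at adjusted p-values of 0.0399 to 0.0495, among 13 genes in all.

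**Figure D2:**
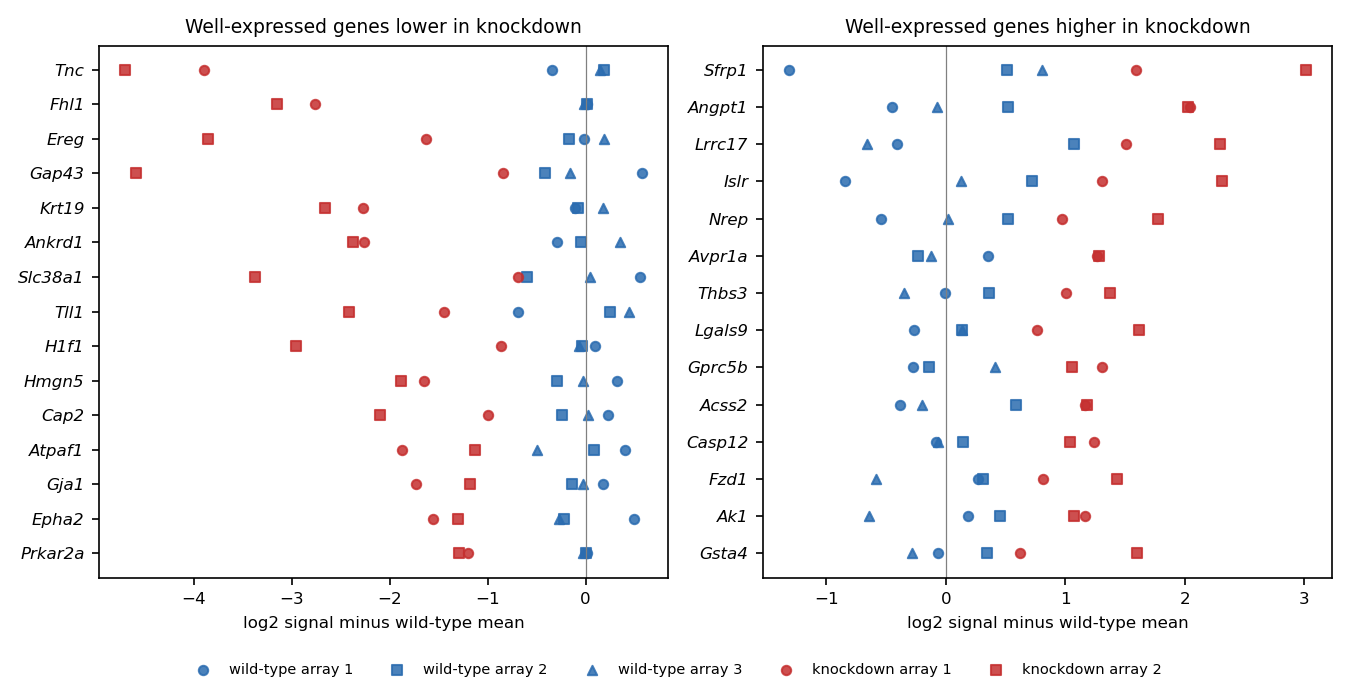
Log2 signal of well-expressed genes on each array, relative to the wild-type mean, for the 14 largest differences downward with Prkar2a (left) and the 14 largest upward (right). The genes were taken from those at an unadjusted p under 0.05 with groups that did not overlap. Points are single arrays, blue for wild type and red for knockdown. The knockdown arrays of Gap43 and Slc38a1 lie far apart, while those of Ankrd1, Avpr1a and Acss2 nearly coincide.

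Sfrp1, a secreted Wnt antagonist, had the largest difference upward among well-expressed genes at an unadjusted p under 0.05 without overlap between groups. It stood at 8.02 and 8.31 on wild-type arrays 2 and 3, lower still on array 1, and at 9.10 and 10.53 in knockdown (2.31 ± 0.803, adjusted p = 0.294). Angpt1, a ligand of the TEK receptor, stood at 5.62, 6.60 and 6.00 against 8.12 and 8.10 (2.04 ± 0.61, adjusted p = 0.239). Wild-type array 1 was the lowest in both genes.

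Avpr1a, a vasopressin receptor, stood at 8.96, 8.37 and 8.49 in wild type, at 9.87 and 9.89 in knockdown and at 5.13 and 5.75 in knockout. Knockdown lay above and knockout below every wild-type array. The difference from wild type was 2.42-fold (1.27 ± 0.241, adjusted p = 0.162), and knockdown and knockout differed by 4.44 ± 0.264 (adjusted p = 0.0062; 0.0199 without knockout array 2 and 0.119 without knockdown array 2). Further genes among the 14 largest differences upward were Lrrc17 (1.91), Islr (1.81), Nrep (1.37) and the matricellular thrombospondin Thbs3 (1.19). Others were the lectin Lgals9 (1.19), the orphan receptor Gprc5b (1.18), the caspase Casp12 (1.14) and the adenylate kinase Ak1 (1.12, chromosome 2). In knockout Lgals9 and Ak1 also lay higher than wild type, by 2.38 and 1.65. Of the 14, Angpt1, Islr, Gprc5b and Acss2 had wild-type means below 7 (6.07, 6.35, 6.95 and 6.70). Angpt1, Islr and Gprc5b counted as well expressed only through the knockdown and knockout arrays. Acss2 did so only through the knockdown arrays, since its knockout mean was 6.74. The place of these genes here therefore rests partly on the difference itself.

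The smallest p-values upward were those of Grina, Fzd2, Tbc1d13, Npc2, Fzd8 and Ap5s1. Npc2, which carries cholesterol within lysosomes, stood at 8.77, 9.02 and 8.96 in wild type and at 9.69 and 9.79 in knockdown (0.82 ± 0.109, adjusted p = 0.110). Fzd2, a Wnt receptor, stood at 7.93, 8.02 and 7.92 against 8.60 and 8.68 (0.68 ± 0.0817, adjusted p = 0.100). The arrays of each group lay close together in both genes. Tbc1d13 and Ap5s1, both of chromosome 2, differed by 0.66 each, and by 0.38 each once chromosome medians were removed.

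Gene lists by function are described next by how many members lay higher or lower. Over all tested genes the median change was 0.03, and 6.99% lay lower and 7.12% higher at an unadjusted p under 0.05. Over well-expressed genes the median was -0.03 and these shares were 12.9% lower and 8.34% higher. Regardless of p, 9537 of the 16801 tested genes lay higher and 7253 (43.2%) lower. Of the 7233 well-expressed genes, 3281 lay higher and 3952 lower. Most function lists held more well-expressed genes than others, and for them the shares over well-expressed genes are the closer background.

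LIM-domain adaptors, which link adhesion sites and actin filaments to the nucleus, held the called gene Fhl1. Of 32 tested members 18 lay higher and 14 lower, with a median of 0.06, and 3 passed the unadjusted threshold each way. Fhl3 (chromosome 4), a relative of Fhl1, stood at 9.54, 9.40 and 9.51 in wild type and at 8.75 on both knockdown arrays (-0.73 ± 0.0855, adjusted p = 0.0964). Fhl2 differed by 0.08. The zyxin relative Lpp differed by -0.46, and Lima1, which bundles actin filaments, by 0.33. The list as a whole therefore lay near wild type around a single called gene.

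Genes of the contractile apparatus and the actin cytoskeleton lay lower, with 25 of 30 members below wild type and a median of -0.21. At an unadjusted p under 0.05, 0 members lay higher and 4 (13.3%) lay lower, near the 12.9% over all well-expressed genes. The 4 lower members were the tropomyosin Tpm2 (-0.88 ± 0.169, chromosome 4), the nonmuscle myosin heavy chain Myh10 (-0.60 ± 0.2), talin Tln1 (-0.45 ± 0.0882, chromosome 4) and the calponin Cnn2 (-0.35 ± 0.0993). By array the list medians were -0.18, 0.06 and 0.06 in wild type and -0.18 and -0.23 in knockdown, so wild-type array 1 lay level with knockdown array 1. With chromosome medians removed the list median was -0.13, Tpm2 stood at -0.49, Tln1 at -0.07 and Cnn2 at -0.18, while Myh10 stood at -0.58.

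Smooth muscle genes of the list differed unevenly between clones. Cnn1 stood at 8.75, 10.07 and 9.61 in wild type and at 9.02 and 6.84 in knockdown. Acta2, the actin of myofibroblasts, stood at 12.14, 12.78 and 12.61 against 12.46 on both knockdown arrays. The groups overlapped in both genes.

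The CArG box, the site of serum response factor, is shown for Fhl1, which was called, and for the 5 list members that hold it, since this factor is known to control genes of this list. The box was searched in the 250 bases before each gene start in RefSeq promoter sequences of GRCm38.p6. The search pattern is the same on both strands, though the letters of a single box need not be. It was found in 5 of the 27 list members with a promoter entry (18.5%) and in 482 of all 32851 promoter windows (1.47%). Capitals mark the box in each line, which runs 5′ to 3′ on the strand of the gene.
Fhl1, chrX:56779561-56779610, plus strand: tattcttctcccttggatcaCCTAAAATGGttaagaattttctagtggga
Cnn2, chr10:79988524-79988573, plus strand: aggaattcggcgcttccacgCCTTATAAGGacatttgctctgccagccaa
Myl9, chr2:156775283-156775332, plus strand: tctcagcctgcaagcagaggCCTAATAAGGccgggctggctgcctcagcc
Myl6, chr10:128493030-128493079, minus strand: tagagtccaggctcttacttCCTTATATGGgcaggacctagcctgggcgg
Vcl, chr14:20929151-20929200, plus strand: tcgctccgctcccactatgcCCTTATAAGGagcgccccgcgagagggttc
Actc1, chr2:114052893-114052942, minus strand: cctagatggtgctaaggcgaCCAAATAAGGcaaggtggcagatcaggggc
A match is a description of the letters and not a bound site. The differences of these genes were -2.96 for Fhl1, -0.35 for Cnn2, -0.38 for Myl9, -0.26 for Myl6, -0.08 for Vcl and -0.20 for Actc1. Of the 5 list members Cnn2 alone was at an unadjusted p under 0.05, and the Myl9 arrays overlapped (9.20, 11.14 and 10.80 in wild type, 10.07 and 9.94 in knockdown).

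Protein kinase A and cyclic AMP genes held the called gene Prkar2a, while the list median was -0.01 over 36 members. Besides Prkar2a, the anchoring proteins Akap8 (-0.58 ± 0.15) and Akap1 (-0.45 ± 0.104) and the adenylyl cyclase Adcy3 (-0.35 ± 0.124) lay lower at an unadjusted p under 0.05, and 0 members lay higher. The other regulatory subunits were close to wild type, with Prkar1a at 0.04 ± 0.0865 and Prkar2b at -0.08 ± 0.128. The catalytic subunit Prkacb differed by 0.06 ± 0.0917.

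Receptors and partners of tenascin-C, which bind it at the cell surface or in the matrix, had a median of 0.04 over 23 tested members, with 4 (17.4%) higher and 0 lower by unadjusted p. Pdgfrb, a receptor for platelet-derived growth factor, stood at 9.42, 10.24 and 10.48 in wild type and at 11.16 and 10.93 in knockdown (1.00 ± 0.308, adjusted p = 0.251). Versican, Vcan, stood at 10.13, 10.49 and 10.11 against 11.13 and 10.77 (0.71 ± 0.193, adjusted p = 0.211). Groups did not overlap in either. The other higher members, Itga9 (0.59) and Ncan (0.37), were not well expressed. The integrin subunits Itgav (0.03 ± 0.262, chromosome 2) and Itgb1 (-0.20 ± 0.106) were within the spread of the arrays.

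Inducers and regulators of the Tnc gene had a median of 0.01 over 25 members, with 3 lower and 0 higher. Jun (chromosome 4), a subunit of the AP-1 factor, stood at 9.82, 9.85 and 9.62 in wild type and at 8.96 and 9.12 in knockdown (-0.72 ± 0.106, adjusted p = 0.117). Notch2 differed by -0.23 ± 0.0709 and Ets2 by -0.32 ± 0.127. Tgfb1 differed by 0.30 and Srf by -0.15, neither at an unadjusted p under 0.05.

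Interstitial matrix genes, which encode fibrillar collagens and the proteins bound to them, lay higher for 24 of 36 members with a median of 0.35. At an unadjusted p under 0.05, 7 (19.4%) lay higher and 0 lower. Changes ran from -1.42 to 1.35, so the largest single difference was a fall, which did not reach that threshold. Emilin1, an elastic fibre glycoprotein, stood at 7.94, 8.28 and 7.66 in wild type and at 8.79 and 9.13 in knockdown (1.00 ± 0.197, adjusted p = 0.162). Col5a2 lay higher by 0.90 ± 0.28, Sparc by 0.66 ± 0.191 and Fbln1 by 0.83 ± 0.322.

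Collagen I and III chains overlapped between groups: Col1a1 stood at 11.60, 12.13 and 11.61 against 12.12 and 12.47, and Col3a1 at 9.06, 10.71 and 9.08 against 10.65 and 11.29. Wild-type array 2 lay level with the knockdown arrays across the list, whose medians were -0.27, 0.32 and -0.02 in wild type and 0.31 and 0.30 in knockdown. On the knockout arrays the list medians were 0.38 and 0.31. Without wild-type array 1 the list median was 0.12. Without wild-type array 2 it was 0.54. The 16 fibroblast markers, Col1a1 and Pdgfrb among them, had a median of 0.23, with 11 above and 5 below wild type. By unadjusted p 3 of these markers lay higher and 0 lower, and the changes ran from -1.42 to 1.35. The part of the fibroblast markers in the list's difference was not tested.

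Enzymes that process collagen had a median of 0.13 over 22 members, 0.08 without wild-type array 1 and 0.29 with chromosome medians removed. Plod2, the lysyl hydroxylase of collagen telopeptides, went against the collagen chains: it stood at 8.18 on all 3 wild-type arrays, at 6.88 and 7.05 in knockdown and at 8.82 and 9.47 in knockout. Knockdown lay below and knockout above wild type. The wild-type values of Plod2 were identical, with an SD of 0, and this tie enters the standard errors that follow. The difference from wild type was 2.31-fold (-1.21 ± 0.188, adjusted p = 0.123), and that from knockout passed the test (-2.18 ± 0.206, adjusted p = 0.033), as it did without knockout array 2 (0.0199) but not without knockdown array 2 (0.171). By unadjusted p, 1 member of the list (4.55%) lay higher, the procollagen enhancer Pcolce (0.37 ± 0.131). The 2 lower members (9.09%) were Plod2 and Ppib (-0.29 ± 0.0894). With chromosome medians removed Ppib differed by -0.15.

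Basement membrane genes had a median of 0.09 over 19 members, -0.01 without knockdown array 1 and 0.29 with chromosome medians removed, with agrin (Agrn, chromosome 4, -0.46 ± 0.158) as the only one at an unadjusted p under 0.05. Agrn was not well expressed, and with chromosome medians removed it stood at -0.07. Matrix proteases and inhibitors had a median of 0.10 over 28 members, or 0.03 without wild-type array 2. Cathepsin B (Ctsb, 0.43 ± 0.147) and Adamts4 (0.79 ± 0.171) lay higher, and Adamts4 was not well expressed. Integrins and adhesion receptors had a median of 0.08 over 33 members, which turned to -0.01 with chromosome medians removed and to -0.03 without wild-type array 1; 4 lay higher and 0 lower. They were Itga9 (0.59), Cd47 (0.40), the collagen receptor Ddr2 (0.30) and Itgb4 (0.22), of which Itga9 and Itgb4 were not well expressed.

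In plasminogen activation, where secreted proteases turn plasminogen into plasmin at the cell surface, the urokinase receptor Plaur stood at 8.79, 8.73 and 8.95 in wild type and at a mean of 7.98 ± 0.024 (SD of 2 arrays) in knockdown. This is a 1.79-fold difference downward (-0.84 ± 0.0871, adjusted p = 0.0928), against 1.03 ± 0.146 upward for the activator Plat. In knockout Plat differed from wild type by 1.06 and Plaur by -0.13. The list of 10 tested members had a median of -0.09, which turned to 0.05 with chromosome medians removed.

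**Figure D3:**
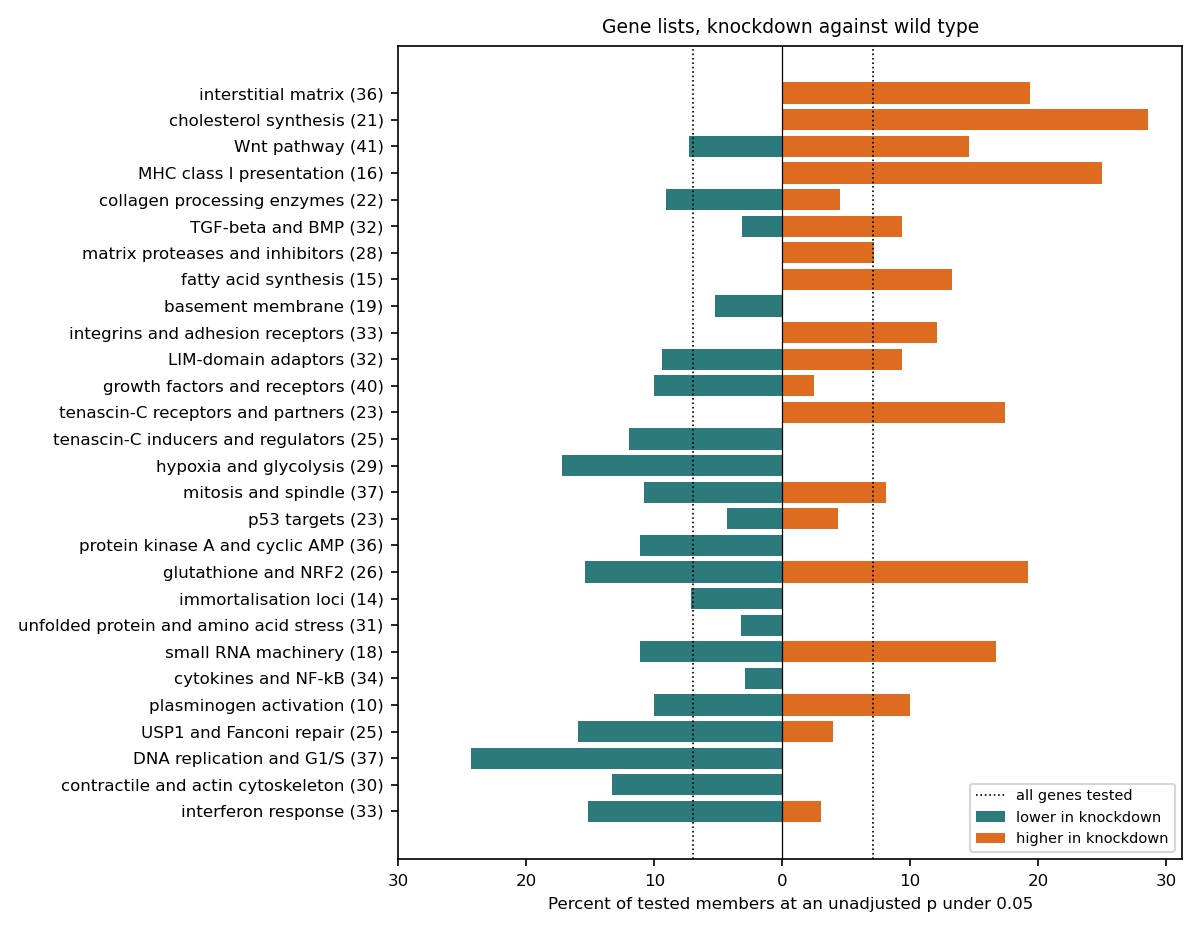
Percentage of the tested members of each gene list at an unadjusted p under 0.05, lower (left) and higher (right) in knockdown, with the number of tested members in brackets and dotted lines at the shares over all genes, 6.99% and 7.12%. Cholesterol synthesis reaches 28.6% higher and DNA replication 24.3% lower. Over well-expressed genes alone the shares were 12.9% lower and 8.34% higher.

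Wnt pathway genes lay higher for 29 of 41 members, with a median of 0.13 (0.06 without wild-type array 1 and 0.22 with chromosome medians removed), and by unadjusted p 6 (14.6%) lay higher and 3 (7.32%) lower. Receptors made up 3 of the 6: Fzd1 stood at 9.16, 9.21 and 8.31 in wild type and at 9.71 and 10.32 in knockdown (1.12 ± 0.336), Fzd8 lay higher by 1.01 ± 0.136 and Fzd2 as given above. The antagonist Sfrp1 lay higher as well. The antagonist Dkk2 stood at 6.63, 6.45 and 6.43 against 5.30 and 5.25 (-1.23 ± 0.13, adjusted p = 0.0928), and passed at an adjusted p of 0.0199 with chromosome medians removed. Dkk2 was not well expressed, and in knockout it also lay below wild type, by 1.02. Ctnnb1, which encodes beta-catenin, differed by 0.04, and the target gene Axin2 by 0.00.

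Growth factors and receptors had a median of 0.05 over 40 members, with 4 (10%) lower and 1 higher. The lower ones were Ereg, the hepatocyte growth factor receptor Met, the EGF receptor ligand Hbegf and the receptor Erbb2 (-0.41). Met stood at 9.65, 9.17 and 9.46 in wild type and at 8.54 on both knockdown arrays (-0.89 ± 0.148, adjusted p = 0.129). Hbegf stood at 9.49, 9.25 and 9.37 against 8.94 and 8.61 (-0.60 ± 0.167, adjusted p = 0.220). The receptor Egfr itself was not well expressed and differed by 0.28.

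TGF-beta and BMP genes lay higher for 23 of 32 members with a median of 0.11, or 0.04 without knockdown array 2. By unadjusted p, 3 (9.38%) lay higher, near the 8.34% over well-expressed genes, and 1 (3.12%) lay lower. The activin receptor Acvr2a (chromosome 2) lay higher by 0.98 ± 0.243 and the latent TGF-beta binding protein Ltbp3 by 0.58 ± 0.201. The BMP target Id3 (chromosome 4) lay lower by 0.80, at 9.46, 9.46 and 9.05 in wild type and 8.58 and 8.46 in knockdown. Its relative Id1 (chromosome 2) differed by 0.20, and by -0.08 with chromosome medians removed, so its direction depended on that setting.

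DNA replication and G1/S genes lay lower for 25 of 37 members with a median of -0.14, and 9 (24.3%) did so at an unadjusted p under 0.05, with 0 higher. Cyclin D1, Ccnd1, stood at 11.13, 10.88 and 10.82 in wild type and at 10.35 and 10.42 in knockdown (-0.56 ± 0.111, adjusted p = 0.162). Cdt1, a licensing factor of replication origins, lay lower by 0.39, Orc1 (chromosome 4) by 0.84 and Ccne2 (chromosome 4) by 0.45. Orc1 was not well expressed. The list median was -0.24 on knockdown array 1 and 0.01 on knockdown array 2, so the list lay at the wild-type level on the second array. Cdt1 differed by -0.21 without knockdown array 1 and by -0.58 without knockdown array 2. With chromosome medians removed Ccne2 differed by -0.06, Orc1 by -0.45 and Cdt1 by -0.26.

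Mitosis and spindle genes had a median of 0.00 over 37 members. Beside Haus6, the spindle recruiting factor Nedd1 (-0.51 ± 0.123), the gamma-tubulin complex gene Tubgcp3 (-0.40 ± 0.0893) and the midzone kinesin Kif23 (-0.43 ± 0.0873) lay lower, and 3 members lay higher. The 6 other augmin subunits tested differed by -0.11 to 0.18. Members of the Fanconi repair list other than Usp1 at an unadjusted p under 0.05 were Fancb (-0.59, X chromosome), Rad18 (-0.33), Blm (-0.25) and Fance (0.20).

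Cholesterol synthesis genes lay higher for 18 of 21 members with a median of 0.24, and 6 (28.6%) did so at an unadjusted p under 0.05, with 0 lower. Tm7sf2, a sterol reductase, stood at 7.02, 7.61 and 7.19 in wild type and at 8.30 and 7.89 in knockdown (0.82 ± 0.202, adjusted p = 0.196). The prenyl synthase Fdps stood at 10.02, 10.22 and 10.24 against 10.52 on both arrays (0.36 ± 0.0932, adjusted p = 0.203). Mvk, Ebp and Hsd17b7, enzymes of the same pathway, and Srebf2, its main transcription factor, lay higher by 0.39, 0.39, 0.62 and 0.38. The list median was 0.16 and 0.33 on the knockdown arrays and -0.04 to 0.05 in wild type, and 0 members lay on chromosome 2 or 4.

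Fatty acid synthesis genes had a median of 0.10 over 15 members, or 0.04 without knockdown array 1. Acss2 (chromosome 2), which makes acetyl-CoA from acetate, stood at 6.32, 7.29 and 6.50 in wild type and at 7.86 and 7.88 in knockdown (1.17 ± 0.277, adjusted p = 0.188). As stated above, Acss2 counted as well expressed only through the knockdown arrays. The desaturase Fads2 lay higher by 0.59 ± 0.203. Fasn differed by -0.06.

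**Figure D4:**
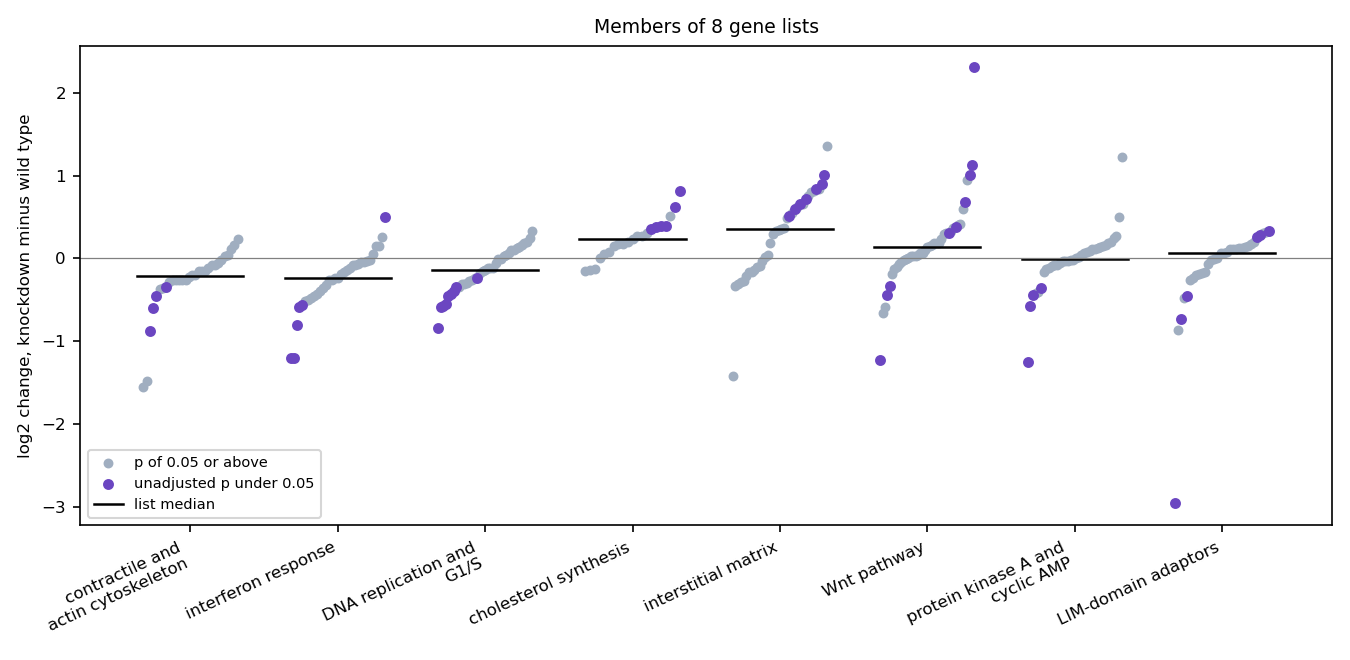
Log2 change from wild type to knockdown of each tested member of 8 gene lists, in order of size, with purple points at an unadjusted p under 0.05 and a line at the list median. Fhl1 at -2.96, Prkar2a at -1.25 and Sfrp1 at 2.31 stand apart from lists whose medians lie between -0.23 and 0.35.

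Interferon response genes lay lower for 28 of 33 members with a median of -0.23, with 5 (15.2%) lower and 1 higher at an unadjusted p under 0.05. The lower ones were Rtp4, Usp18, Ifit1, the sensor Ddx58 (chromosome 4) and the GTPase Gbp7. Of these Ddx58 alone was well expressed, and it went from -0.57 to -0.18 with chromosome medians removed. Ifit1, which binds foreign RNA, stood at 6.22, 5.26 and 5.55 in wild type and at 4.66 and 4.29 in knockdown (-1.20 ± 0.327, adjusted p = 0.213). The list, 11 of whose 33 members were well expressed, had medians of 0.06, -0.15 and 0.08 in wild type and -0.22 and -0.23 in knockdown. On the knockout arrays they were -0.30 and -0.29, and knockdown and knockout share the wild-type arrays. The higher member, the factor Irf1, differed by 0.50 on one of its probe sets and by -0.07 on the other.

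The core of the interferon-stimulated response element, read here as GAAA, any 2 bases and GAAA again, is shown for the lower members that held it at an unadjusted p under 0.05. On either strand it was found in 9 of the 27 list members with a promoter entry (33.3%) and in 978 of 32851 windows (2.98%). Capitals mark the match farthest from the gene start, here on the opposite strand.
Ifit1, chr19:34640765-34640814, plus strand: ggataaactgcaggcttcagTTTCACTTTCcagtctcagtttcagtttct
Gbp7, chr3:142530263-142530312, plus strand: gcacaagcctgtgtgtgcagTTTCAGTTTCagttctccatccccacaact
Gbp7 stood at 5.73, 5.56 and 5.84 in wild type and at 5.30 and 4.95 in knockdown (-0.59 ± 0.185, adjusted p = 0.258). The other 7 members with the match were not at an unadjusted p under 0.05: Gbp3 differed by -0.52, Ifit3 by -0.46, Bst2 by -0.43, Oas1a by -0.18, Stat2 by -0.08, Oas3 by 0.15 and Rsad2 by 0.14.

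MHC class I presentation genes, many of which interferon also controls, lay higher for 11 of 16 members with a median of 0.13, with 4 (25%) higher and 0 lower by unadjusted p. Without knockdown array 2 the median was 0.03. Mr1, which presents vitamin B metabolites, stood at 7.57, 7.74 and 7.35 in wild type, at 8.35 and 8.45 in knockdown and at 5.58 and 4.81 in knockout. Knockdown lay above and knockout below wild type. The difference from wild type was 0.85 ± 0.237 (adjusted p = 0.220), and that from knockout passed the test (3.21 ± 0.259, adjusted p = 0.0189), as it did without knockout array 2 (0.0223) but not without knockdown array 2 (0.160). The proteasome activator genes Psme1 (0.50 ± 0.147) and Psme2 (0.40 ± 0.083) and the peptide loading chaperone Tapbp (0.41 ± 0.106) lay higher.

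Hypoxia and glycolysis genes had a median of 0.00 over 29 members, with 5 (17.2%) lower and 0 higher. The glucose transporter Slc2a1 (chromosome 4) stood at 10.12, 10.07 and 9.99 in wild type and at 9.52 and 9.40 in knockdown (-0.60 ± 0.0813, adjusted p = 0.110). Hexokinase 2, Hk2, stood at 7.98, 7.92 and 7.99 against 7.43 and 7.24 (-0.62 ± 0.133, adjusted p = 0.164). Pfkp (-0.69), Egln1 (-0.56) and Ero1a (-0.41) were the others. With chromosome medians removed Slc2a1 differed by -0.22.

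Glutathione and NRF2 genes divided into both directions, with 5 higher and 4 lower of 26 and a median of -0.01. The glutathione transferases Gsta4 (1.11 ± 0.347) and Gstm1 (0.98 ± 0.371), the sulfiredoxin Srxn1 (0.53 ± 0.0784, chromosome 2), Nfe2l2 (0.45, chromosome 2) and Fth1 (0.22) lay higher. The reductases Gsr (-0.56 ± 0.124) and Txnrd1 (-0.44 ± 0.114), the peroxiredoxin Prdx1 (-0.53 ± 0.103, chromosome 4) and Gclc (-0.31) lay lower. The unfolded protein and amino acid stress list had a median of -0.04 over 31 members, and Dnajb9 (-0.59 ± 0.187) alone passed the unadjusted threshold.

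Cytokines and NF-kB genes had a median of -0.07 over 34 members. Ptgs2, the inducible cyclooxygenase, stood at 11.37, 11.11 and 11.84 in wild type and at 10.34 and 9.93 in knockdown, a 2.47-fold difference (-1.30 ± 0.306, adjusted p = 0.188). It was the only member at an unadjusted p under 0.05. Il1a (chromosome 2) differed by -1.51 through 1 array, since it stood at 9.01 on wild-type array 3 and at 3.53 to 4.74 on the other wild-type and knockdown arrays.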

How the data were processed

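Gene expression was read from Affymetrix whole-transcript arrays of 7 fibroblast clones. The authors' deposited table holds log2 signals, 1 column per array, and per the submitters' processing notes R 2.8.0 and affy were used; background correction, summarisation and normalization were not given in the sources used here. Of 34760 probe sets, 21640 had 1 gene symbol, 1321 had several and 11799 were not listed with a gene, and symbols were updated through RefSeq (GRCm38.p6, 21553 matched). For the 954 genes with several probe sets, the one with the highest mean over the 7 arrays was used. A gene was tested where at least 2 arrays had it above their own 25th percentile.

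Group means over the 7 arrays were compared in limma (version 3.58.1, under R 4.3.3) by lmFit and eBayes with two-sided tests, where 4 degrees of freedom were residual and the prior added 2.06, and p-values were adjusted by Benjamini-Hochberg over all tested genes. The code was tested on simulated data. The number of arrays limits the precision. Lists are described by counts and medians, with no test of a list.

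The genes named are the called genes, the 14 well-expressed genes with the largest difference each way among those at an unadjusted p under 0.05 with groups that did not overlap, the 6 of smallest p each way, and up to 4 members of each list by smallest p; other genes were chosen after their values were seen. The members and lists were chosen with earlier results of these data known. The alternatives were other filters, probe set rules, arrays in the fit, normalizations, priors, array weights, the replicate number as a block, left-out arrays and, added after seeing the data, removal of chromosome medians. Deviations of same-numbered wild-type and knockdown arrays correlated at -0.02 and 0.25. With 2 knockdown arrays their deviations are mirror images, so these values cannot decide whether replicate numbers pair the clones.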

Additional observations from a re-analysis of the deposited data

Results flagged for a closer look

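Knockdown and knockout fibroblasts share the wild-type arrays, so the contrast between them is the test of whether their differences from wild type are equal. Over all genes 63 of 16801 (0.375%) passed an adjusted p under 0.05 in limma. Of the named genes, 12 passed, with these log2 differences of knockdown minus knockout. Those lower in knockdown were Fhl1 (-3.34), Plod2 (-2.18), Gja1 (-1.88), Prkar2a (-1.86), Tpm2 (-1.53), Ero1a (-1.39), Haus6 (-0.87), Slc2a1 (-0.81), Fhl3 (-0.76) and Grina (-0.63). Those higher in knockdown were Avpr1a (4.44) and Mr1 (3.21). Grina lay above wild type in both groups, at 9.48 and 9.44 in knockdown and 10.07 and 10.11 in knockout against 8.83 to 8.88 in wild type. The median difference between knockdown and knockout was -0.31 on chromosome 4 (Tpm2, Haus6, Slc2a1 and Fhl3), -0.27 on chromosome 15 (Grina), -0.25 on chromosome 9 (Prkar2a and Plod2) and -0.12 on the X chromosome (Fhl1). With chromosome medians removed 7 of the 12 passed, and Tpm2, Haus6, Slc2a1, Fhl3 and Grina did not. Sex-linked genes set knockout array 2 and knockdown array 2 apart. Without knockout array 2, 5 of the 12 passed (Fhl1, Prkar2a, Avpr1a, Mr1 and Plod2), and without knockdown array 2, or without both, 0 passed (2572 and 3096 of all genes tested at an unadjusted p under 0.05 in limma). All 12 kept their direction in these settings, which were added after seeing the data. The part of chromosome dosage in these differences was not tested.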

How the results depend on the processing

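The count of 3 called genes became 13 with only well-expressed genes tested, where 1389 were at an unadjusted p under 0.05, and 6 with chromosome medians removed (Tnc, Fhl1, Prkar2a, Dkk2, Rgs2 and Abhd6). It was 0 in limma with the 5 wild-type and knockdown arrays alone (2424 unadjusted), with both arrays numbered 2 left out (2539 unadjusted), and with each of the 7 arrays left out in turn (0 to 0 called, 1618 to 2617 unadjusted). With the replicate block it was 0 as well, with 2206 at an unadjusted p under 0.05. It was 2 without a filter and with a trended prior. Of the unadjusted genes 49.5% lay lower, against 59.8% with arrays centred on their medians and 36.9% with chromosome medians removed, and of the well-expressed genes without overlap 60.9%, against 50.5% after quantile normalization. Id1 turned from 0.20 to -0.078 with chromosome medians removed. The medians of the contractile (-0.28 to -0.13), interferon (-0.28 to -0.14), interstitial matrix (0.12 to 0.54), cholesterol (0.16 to 0.33) and Wnt (0.06 to 0.22) lists kept their sign under all 18 alternatives, and that of DNA replication under all but 1, where it was 0.01 without knockdown array 1. Lists with medians near 0 changed sign under 1 to 7 alternatives. These comparisons are limited by 2 knockdown clones, by no control hairpin among the arrays analysed and by a normalization that is not known.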

Other observations

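The small RNA machinery, which a stable hairpin uses, was near wild type as a list (median -0.04 over 18 members) but held members in both directions. Dgcr8, the partner of Drosha in cutting primary microRNAs, stood at 9.07, 8.94 and 8.98 in wild type and at 8.50 and 8.60 in knockdown (-0.45 ± 0.0811, adjusted p = 0.153 in limma). Tnrc6b, a scaffold of the silencing complex, stood at 7.96, 7.91 and 7.83 against 8.30 and 8.38 (0.44 ± 0.0766, adjusted p = 0.134). The knockout arrays, whose labels name no hairpin, stood higher still for Tnrc6b, at 8.51 and 8.56. Tnrc6b lies on chromosome 15, and with chromosome medians removed it differed by 0.30 between knockdown and wild type. The helicase Mov10 lay higher by 0.56 and the nuclease Snd1 lower by 0.39. Dicer1 and Ago2 differed by -0.09 and 0.01.

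Genes that spontaneous immortalisation can touch lay close to wild type, with a median of -0.02 over 14 members. Cdkn2a and Cdkn2b, cell cycle inhibitors on chromosome 4, differed by -0.03 and -0.01. The chromatin protein Hmga2 stood at 10.57, 10.08 and 10.30 in wild type and at 9.59 and 9.08 in knockdown (-0.98 ± 0.197, adjusted p = 0.162). The p53 target list had a median of -0.01 over 23 members, with the proapoptotic Bbc3 higher by 0.37 and the nuclease Aen lower by 0.28. Bbc3 was not well expressed.

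Among markers of other mesenchymal cells, Lpl of adipocytes stood at 5.79, 6.18 and 7.63 in wild type and at 7.81 and 7.59 in knockdown, with overlap between groups, and Mcam of pericytes stood at 6.91, 7.83 and 7.13 against 6.58 and 6.57. Mcam was not at an unadjusted p under 0.05. In the pericyte list 5 of 9 members lay higher, with 2 higher and 0 lower at that threshold and a median of 0.00. The adipocyte list had 5 members higher and 1 lower, with a median of 0.24. Nestin, Nes, lay lower by 1.14 ± 0.4 and was not well expressed. Of the 13 tested neural and glial markers, 9 lay higher and 4 lower, with a median of 0.02.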
